A study of Mus musculus with 32 samples.

Results

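Glycolysis and pyruvate handling are described here through 35 genes listed by name, from the glucose transporters to the pyruvate dehydrogenase complex, out of 31053 genes counted. The list sets no threshold on a measured value. All 35 genes passed the filter on low counts, a normalised read count (CPM, reads scaled to a common library size) of at least 1 in at least 4 libraries, as did 15280 genes in all. The samples were 32 libraries of mouse embryonic stem cells (ESCs), in 8 groups of 4, sequenced from the 3′ ends of their mRNAs. Every group came from the C1 line, ESCs that lack endogenous β-catenin and carry a fusion of a destabilising domain, mCherry and the mutant β-catenin S33Y. Doxycycline (dox) switches the fusion's transcription on and trimethoprim (TMP) stabilises the protein. Both are called the inducers here. In the pluripotent state (day 0), C1 cells had received TMP as the only inducer. C1M and C1H cells had received dox and TMP for 48 h and were sorted for middle and high mCherry. Per the study's methods, all day 0 cells were grown with LIF and inhibitors of the kinases GSK3 and MEK. The labels give serum with LIF instead. The day 4 medium lacked these factors, so every comparison of day 4 with day 0 differs in them too, and their part was not tested. In the differentiated state, after 4 days in a medium without pluripotency factors, C1T cells came from C1 and were kept in TMP. C1MV and C1HV came from the middle and high sort and were cultured with neither inducer, while C1MDT and C1HDT came from the same sorts and were kept in dox and TMP. C1 and C1T cells never received dox and were not sorted on mCherry, so in each comparison with them dox, the sort and the fusion cannot be told apart. In C1MV and C1HV against C1T, TMP during the 4 days differed as well. In C1MDT against C1MV and in C1HDT against C1HV, dox, TMP and the fusion changed together during the 4 days and cannot be told apart. All groups are 1 engineered line. The labels call the 4 libraries of a group biological replicates but do not say how these were obtained. A figure legend of the study speaks of 4 samples from the same experiment. The tests measure the spread between these libraries.

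Glycolysis splits glucose into pyruvate in the cytosol. Pyruvate is then either reduced to lactate by lactate dehydrogenase and exported, or carried into mitochondria and oxidised by the pyruvate dehydrogenase complex, which pyruvate dehydrogenase kinases switch off. Several steps have more than one isozyme encoded by separate genes, and mouse ESCs are known to change their use of glycolysis and mitochondrial respiration when they leave the naive state.

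Reads assigned to genes numbered 1366951 to 3648787 per library, with a median of 2402468, and 3 reads in a library corresponded to 0.822 to 2.19 CPM. Markers of naive pluripotency summed to 4250 to 5970 CPM in the day 0 libraries and 339 to 1200 CPM in those of day 4, where the highest values were in C1MV and C1HV. Markers of the post-implantation epiblast summed to 131 to 190 CPM at day 0 and 745 to 2250 CPM at day 4, highest in C1T. Endoderm markers summed to 9.79 to 22.9 CPM in C1T and 233 to 650 CPM in the other day 4 groups. The 3′ reads on Ctnnb1, the β-catenin gene, had means ± SD of 7.81 ± 2.63 CPM in C1, 12.3 ± 3.84 in C1M and 41.2 ± 5.70 in C1H (n = 4), and the difference between C1M and C1 was not called (adjusted p = 0.0553 by edgeR). At day 4 the means were 29.2 ± 4.29 CPM in C1MDT and 30.8 ± 3.75 in C1HDT against 9.16 ± 2.57 in C1MV, 6.21 ± 1.84 in C1HV and 9.74 ± 2.47 in C1T. Transcripts of adult liver, 10 of 10 listed, were counted in every library and summed to 1700 to 2260 CPM in C1, 957 to 1550 CPM in C1M and C1H, 1800 to 3300 CPM in C1T, 1540 to 2220 CPM in C1MV and C1HV and 1140 to 1780 CPM in C1MDT and C1HDT. The C1 libraries held these liver transcripts although their endoderm markers summed to only 10.5 to 21.0 CPM, and the source of the liver transcripts is not known. For the markers of cell state, fewer cells of a type and less RNA per cell cannot be told apart in these bulk samples.

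For 12 of the 35 genes, near-identical copies were found among the annotated transcripts of other genes. A copy was a stretch of at least 100 bases with at least 95% identity, and sequence outside annotated transcripts was not searched. Such copies could have taken up or removed reads, because only uniquely aligned reads were counted. The number of copies was 75 for Gapdh, 4 each for Pgk1, Eno1 and Ldha, 3 for Pdk4, 2 for Pkm and 1 each for Gpi1, Tpi1, Pgam1, Ldhb, Pfkfb2 and Pdhb. Those of Pdk4 were stretches shared with the genes Cflar, Pik3c2b and Gm45178. A copy reached the 3′ end, where the reads lie, for 8 of the 12, and for Gpi1, Pgam1, Pkm and Pdk4 it did not. The values of the 8 are therefore uncertain in level.

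Promoters are shown for 4 genes whose levels are followed through the groups in the results. Ldha and Ldhb encode the A and B subunits of lactate dehydrogenase and moved in opposite directions when the inducers were kept, Slc16a3 encodes the lactate exporter MCT4 and had the largest change at day 0, and Hkdc1 encodes a hexokinase-like enzyme that was detected in the induced day 4 groups. Each line gives the 250 bases before the annotated start from RefSeq, 5′ to 3′ on the gene's strand. The windows are chr7:46845554-46845803 on the plus strand for Ldha, chr6:142507958-142508207 on the minus strand for Ldhb, chr11:120948817-120949066 on the plus strand for Slc16a3 and chr10:62422458-62422707 on the minus strand for Hkdc1, in build GRCm38.p6. Capitals mark ACGTG and GCGTG, the core letters of hypoxia response elements, read on either strand. ACGTG is contained in CACGTG, the E-box bound by Myc family factors.
Ldha: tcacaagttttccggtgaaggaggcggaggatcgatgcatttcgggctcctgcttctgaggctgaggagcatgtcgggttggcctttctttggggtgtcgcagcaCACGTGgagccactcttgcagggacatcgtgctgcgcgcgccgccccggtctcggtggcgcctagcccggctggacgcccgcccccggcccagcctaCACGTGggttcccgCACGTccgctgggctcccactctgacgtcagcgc
Ldhb: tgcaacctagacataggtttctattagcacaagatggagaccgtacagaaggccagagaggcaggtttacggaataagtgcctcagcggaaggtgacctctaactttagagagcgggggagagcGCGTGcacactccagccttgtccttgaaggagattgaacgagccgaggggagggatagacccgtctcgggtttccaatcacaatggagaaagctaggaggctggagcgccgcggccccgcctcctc
Slc16a3: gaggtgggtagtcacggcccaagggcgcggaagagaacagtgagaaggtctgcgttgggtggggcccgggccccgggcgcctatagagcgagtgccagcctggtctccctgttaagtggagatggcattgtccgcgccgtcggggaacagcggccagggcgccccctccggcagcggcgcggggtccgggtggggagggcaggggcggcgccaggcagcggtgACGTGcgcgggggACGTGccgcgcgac
Hkdc1: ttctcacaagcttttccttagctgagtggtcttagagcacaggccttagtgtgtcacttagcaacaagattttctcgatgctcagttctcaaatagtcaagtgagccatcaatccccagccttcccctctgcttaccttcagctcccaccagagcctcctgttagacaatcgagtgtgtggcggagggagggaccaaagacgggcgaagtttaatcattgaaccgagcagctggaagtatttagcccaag
In these windows Ldha, at the first of its 2 annotated starts, held 5 ACGTG, of which 4 lay in 2 CACGTG palindromes read on both strands. The window of Slc16a3 held 2 ACGTG, that of Ldhb held 1 GCGTG, and that of Hkdc1 held neither. Of 34 members with a promoter sequence, 28 had ACGTG or GCGTG before at least 1 annotated start. Counted per start, 38 of the members' 53 windows of 250 bases before the start held one of them, against 38.6% of all 32851 such windows, and 6 of 53 held CACGTG, against 6.02%. These matches describe the letters only.

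In the pluripotent state many of the listed genes were lower in the induced cells. In C1M, 19 of 35 genes were called lower than in C1 and 0 higher (edgeR's quasi-likelihood test, adjusted p under 0.05), where 12.0% of all genes tested were called lower and 14.3% higher. C1H had 18 genes lower and 1 higher than C1, against backgrounds of 12.1% and 13.8%. Both comparisons share the C1 libraries. The median log2 fold change of the 35 genes was -0.38 in each, where the median of all genes was 0.06 for C1M and 0.04 for C1H. With library sizes left unscaled, C1M had 15 genes lower and 3 higher (Pfkp, Slc16a1 and Dlat).

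**Figure D1:**
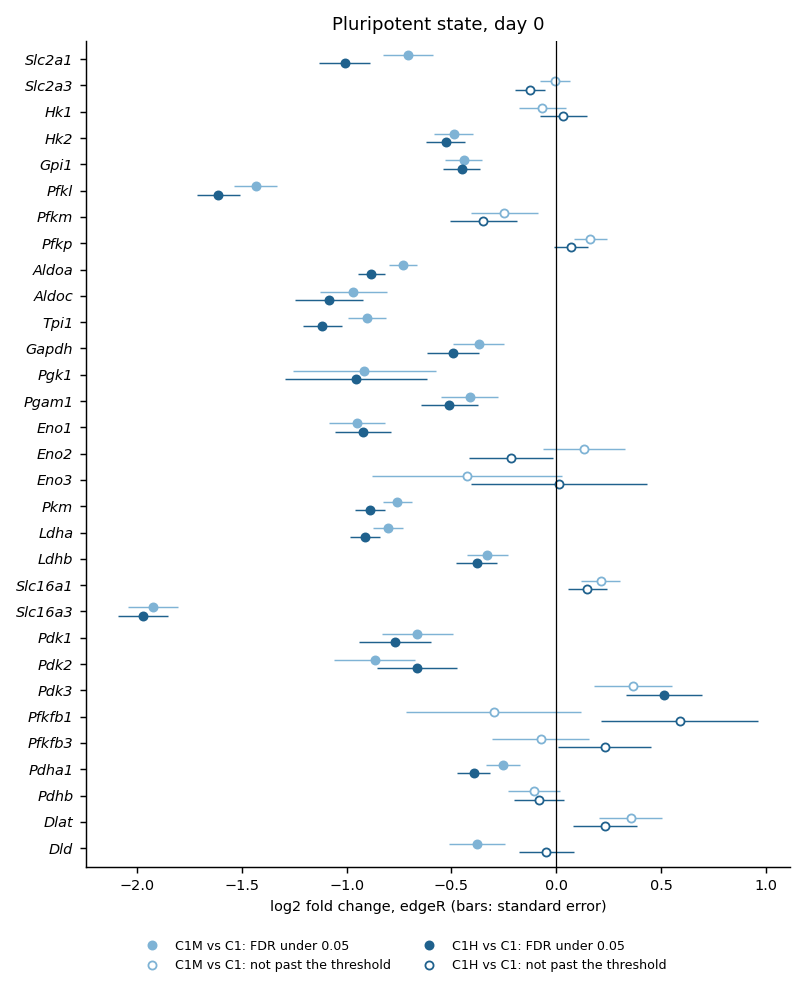
Log2 fold changes of C1M and C1H against C1 at day 0 for 31 members, with standard errors as bars (x axis) and genes from glucose uptake to pyruvate oxidation down the y axis. Filled points passed an adjusted p of 0.05 and open points did not, and the filled points lie left of 0 except for Pdk3 in C1H. Hkdc1, Pdk4, Pfkfb2 and Pfkfb4 are left out for their low counts.

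Slc16a3 had the largest difference at day 0. Its 4 libraries read 98.6, 111, 115 and 81.5 CPM in C1, 25.5, 29.8, 26.1 and 24.8 CPM in C1M, and 22.5, 23.4, 27.5 and 30.3 CPM in C1H. Every induced library lay below every C1 library. The log2 fold changes were -1.92 ± 0.12 in C1M (SE, adjusted p = 8.95e-30) and -1.97 ± 0.12 in C1H (adjusted p = 7.85e-31). Pfkl, the liver type subunit of phosphofructokinase, which commits sugar to glycolysis, read 144, 124, 135 and 146 CPM in C1, 40.3, 52.9, 49.2 and 61.1 CPM in C1M and 42.2, 42.9, 48 and 47.1 CPM in C1H. Its groups did not overlap either, and its log2 fold changes were -1.43 ± 0.10 (adjusted p = 4.34e-26) and -1.61 ± 0.10 (adjusted p = 5.54e-30).

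The transporter Slc2a1 (GLUT1), the most widely expressed glucose carrier, was lower in both induced groups. It read 93.6, 74.2, 75.8 and 67.1 CPM in C1, 47.5, 50.4, 50.5 and 42.1 CPM in C1M and 38.2, 42.2, 35.2 and 39.5 CPM in C1H, with log2 fold changes of -0.71 ± 0.12 and -1.01 ± 0.12. Slc2a3 (GLUT3), a carrier with high affinity for glucose, was not called in either comparison, at 533 ± 44.9 CPM in C1 (SD, n = 4), 531 ± 17.3 in C1M and 489 ± 19.3 in C1H. Among the hexokinases, which trap glucose as glucose 6-phosphate, Hk2 fell by 0.49 and 0.53 on the log2 scale, while Hk1 was not called, at 88.1 ± 5.74, 83.9 ± 10.6 and 90.4 ± 3.08 CPM in C1, C1M and C1H. Among the phosphofructokinase genes Pfkl was called, and the other two were not. Pfkp, the platelet type, read 314 ± 12.9, 351 ± 15.2 and 329 ± 13.9 CPM, and Pfkm, the muscle type, 31.6 ± 7.70, 26.6 ± 2.56 and 24.9 ± 4.34 CPM.

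Most enzymes from aldolase to pyruvate kinase were lower in both induced groups. Aldoa, the aldolase that splits the 6-carbon sugar, read 2200, 2080, 2060 and 2190 CPM in C1, 1190, 1370, 1230 and 1360 CPM in C1M and 1130, 1120, 1210 and 1170 CPM in C1H. No library of the induced groups reached the lowest C1 library, and the log2 fold changes were -0.73 ± 0.07 and -0.88 ± 0.07. The brain type aldolase Aldoc read 35.7, 39.6, 50.9 and 45.5 CPM in C1, 20.5 to 23.8 CPM in C1M and 16.5 to 24.4 CPM in C1H, also without overlap (-0.97 ± 0.16 and -1.09 ± 0.16). Triose phosphate isomerase, Tpi1, fell by 0.90 and 1.12 on the log2 scale, the enolase Eno1 by 0.95 and 0.92, and the pyruvate kinase gene Pkm by 0.76 and 0.89, in C1M and C1H respectively. Smaller decreases were called for Gpi1, which isomerises glucose 6-phosphate, with log2 fold changes of -0.44 and -0.45, for Pgam1, phosphoglycerate mutase, with -0.41 and -0.51, and for Gapdh, with -0.37 and -0.49. Pgk1, phosphoglycerate kinase, was called lower at only 3.72 to 7.43 CPM (group means), and without C1H replicate 4, at 0.42 CPM, its log2 fold change in C1H was -0.63 instead of -0.95 (adjusted p = 0.174). The enolases Eno2, at 19.5 ± 1.20 CPM in C1, 21.3 ± 2.52 in C1M and 16.9 ± 2.97 in C1H, and Eno3, at 3.48 ± 1.56, 2.62 ± 1.22 and 3.46 ± 0.97 CPM, were called in neither comparison. With some 1 library left out, the calls of Pgam1, Gapdh, Pgk1, Ldhb, Pdha1 and Dld in C1M and of Pgk1 and Pdk3 in C1H were lost.

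At the pyruvate branch Ldha read 737, 627, 646 and 688 CPM in C1, 361, 430, 389 and 367 CPM in C1M and 352, 356, 387 and 341 CPM in C1H, and its log2 fold changes were -0.80 ± 0.07 (adjusted p = 1.36e-18) and -0.91 ± 0.07 (adjusted p = 3e-22). Ldhb was also lower, by a smaller amount, with -0.33 ± 0.10 and -0.38 ± 0.10. Slc16a1 (MCT1), which carries lactate and pyruvate in either direction, was not called, at 104 ± 10.1, 120 ± 6.78 and 115 ± 6.00 CPM. Of the kinases that inhibit pyruvate dehydrogenase, Pdk1 fell by 0.66 and 0.77 and Pdk2 by 0.87 and 0.67 on the log2 scale, whereas Pdk3 read 15.1, 16.4, 18.2 and 18.2 CPM in C1 and 17.4, 28.2, 30.4 and 20.6 CPM in C1H, where it was called higher with overlapping libraries (0.51 ± 0.18, adjusted p = 0.0247). Pdha1, the catalytic α subunit, was lower with -0.25 and -0.39. Pdhb and Dlat, the β subunit and the acetyltransferase, were called in neither comparison, and Dld, the third enzyme of the complex, was called lower in C1M (adjusted p = 0.027).

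The sorts were also compared with each other. Between C1H and C1M 0 of the 35 genes were called, a share near the 1.77% of all genes, and 5 of the 35 had an unadjusted p under 0.05 by edgeR as well as by DESeq2, which also called 0. The log2 fold changes of C1H against C1M were -0.05 ± 0.14 for Slc16a3, -0.18 ± 0.11 for Pfkl and -0.11 ± 0.07 for Ldha. The summed naive markers were lower in C1M and C1H than in C1, but not every marker was. In C1M 6 of the 8 were called lower and 2, Nanog and Prdm14, higher, and in C1H 4 were called lower and 1, Prdm14, higher. The part of these markers in the result was not tested. Liver transcripts also summed to less in C1M and C1H. With the liver transcripts as a covariate, 16 genes were called lower and 1 higher in C1M, and 17 lower and 1 higher in C1H.

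Differentiation of the uninduced cells was followed by comparing C1T with C1. Between them, 8 genes were called higher and 13 lower, against 24.4% and 24.9% of all genes, and the median of the 35 was -0.12 where that of all genes was 0.01. The members called made up 60.0% of the 35, beside 49.3% of all genes, so that the shares lay near those of all genes and what follows describes single genes.

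The 2 glucose carriers went in opposite directions. Slc2a1 rose to 308, 317, 274 and 284 CPM in C1T from the 67.1 to 93.6 CPM of C1, a log2 fold change of 1.92 ± 0.10 (adjusted p = 7.72e-32). Slc2a3 read 476, 526, 584 and 547 CPM in C1 and 304, 319, 259 and 292 CPM in C1T, and fell by 0.86 ± 0.07 on the log2 scale (adjusted p = 2.49e-21). In both genes the groups did not overlap.

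Hk1 and Hk2 fell. Hk1 read 95.7, 89.5, 83.1 and 84.4 CPM in C1 and 22.6, 25.4, 18.1 and 22.8 CPM in C1T (-1.98 ± 0.14, adjusted p = 1.13e-27), and Hk2 read 172, 177, 198 and 219 CPM and then 81.1, 98.3, 86.8 and 87.5 CPM (-1.11 ± 0.10). Hkdc1 was near the limit of detection in C1, with 0.42 to 1.04 CPM, and had 0 reads in all 4 C1T libraries, so no fold is given for it. Phosphofructokinase shifted from Pfkp to Pfkl. Pfkp fell from 298, 313, 315 and 330 CPM in C1 to 71.0, 85.8, 64.8 and 90.1 CPM in C1T (-2.02 ± 0.09, adjusted p = 3.02e-45), and Pfkl rose from 124 to 146 CPM to 183, 233, 185 and 210 CPM (0.56 ± 0.09). Pfkm read 29.8, 28.9, 24.9 and 42.7 CPM in C1 and 25, 23.7, 22.9 and 18.3 CPM in C1T, with overlap, and had a log2 fold change of -0.48 ± 0.17, which was -0.30 without C1 replicate 4 at 42.7 CPM (adjusted p = 0.183).

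Aldoa was not called, with 2020 to 2140 CPM in C1T, but Aldoc read 35.7, 39.6, 50.9 and 45.5 CPM in C1 and 13.9, 17.1, 13.8 and 18.3 CPM in C1T (-1.45 ± 0.18). The neuronal type enolase Eno2 read 20.6, 20.4, 18.2 and 18.7 CPM and then 6.24, 7.08, 6.67 and 5.22 CPM (-1.60 ± 0.25), while Eno1 was not called (-0.04). Pkm (0.33) was called higher without overlap and Gpi1 (-0.41) lower, and Tpi1, Pgk1 and Pgam1 were not called. Gapdh was called higher (0.33) with overlapping libraries, and without C1 replicate 1 its value was 0.18 (adjusted p = 0.188).

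At the lactate branch Slc16a3 and Ldha rose and Ldhb fell. Slc16a3 reached 299, 337, 333 and 324 CPM in C1T, above all C1 libraries (1.68 ± 0.09, adjusted p = 1.14e-35). Ldha reached 898, 927, 900 and 896 CPM (0.42 ± 0.07), and Ldhb fell from 131, 112, 114 and 144 CPM to 84.5, 83.7, 93 and 97.9 CPM (-0.49 ± 0.10). Pdk1 read 30.2, 18.7, 26 and 26.8 CPM in C1 and 80.1, 69.1, 66.3 and 62.0 CPM in C1T (1.44 ± 0.14, adjusted p = 2.15e-17), and Pdk2 read 29, 27.2, 26 and 35.5 CPM and then 11.0, 19.2, 11.9 and 8.49 CPM (-1.17 ± 0.21). Pdk3 was called higher at 0.46 ± 0.19 (adjusted p = 0.0388). Pdha1 was lower, with -0.79 ± 0.09, as was Dld with -0.32 ± 0.14. The calls of Hkdc1, Pdk3 and Dld were also lost with some 1 library left out.

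**Figure D2:**
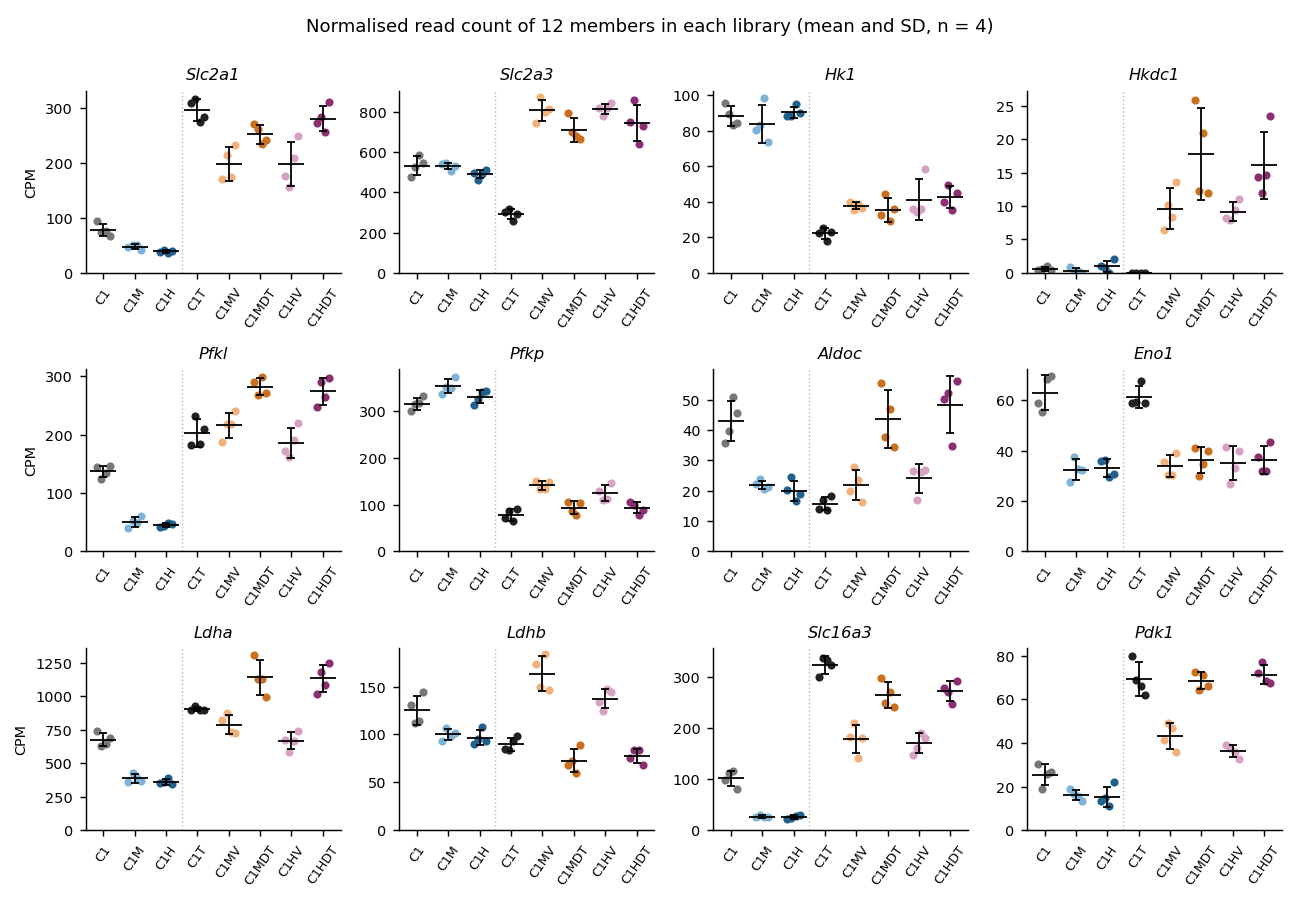
Normalised read count (CPM, y axis from 0) of 12 members in each of the 32 libraries, with groups on the x axis, points for libraries and bars for the mean and SD of 4. The dotted line parts day 0 from day 4. Slc2a1, Slc16a3 and Pdk1 are higher in every day 4 library than in every day 0 library, and Hkdc1 is at 0 in C1T and at 6.45 CPM or more in the other day 4 libraries.

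Cells that had been induced before differentiation started from the lower day 0 levels and showed larger increases. From C1H to C1HDT, 19 genes were called higher and 6 lower, against 26.3% and 29.4% of all genes. From C1M to C1MDT the counts were also 19 and 6, against 24.5% and 27.9%. These 2 comparisons share no library, and 18 genes were called higher in both, 18 of 19 in each list. They included Slc16a3 with log2 fold changes of 3.40 ± 0.11 in C1HDT and 3.31 in C1MDT, Slc2a1 with 2.85 and 2.39, Pfkl with 2.61 and 2.47, Pdk1 with 2.24 and 2.07, Ldha with 1.66 and 1.56, and Pkm with 1.48 and 1.33. Hk1, Hk2, Pfkp, Eno2 and Ldhb were lower in both, 5 of 6 in each list. With the inducers withdrawn, C1MV had 18 genes higher and 3 lower than C1M (22.0% and 23.9% of all genes), and C1HV had 17 higher and 3 lower than C1H (22.0% and 25.1%).

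**Figure D3:**
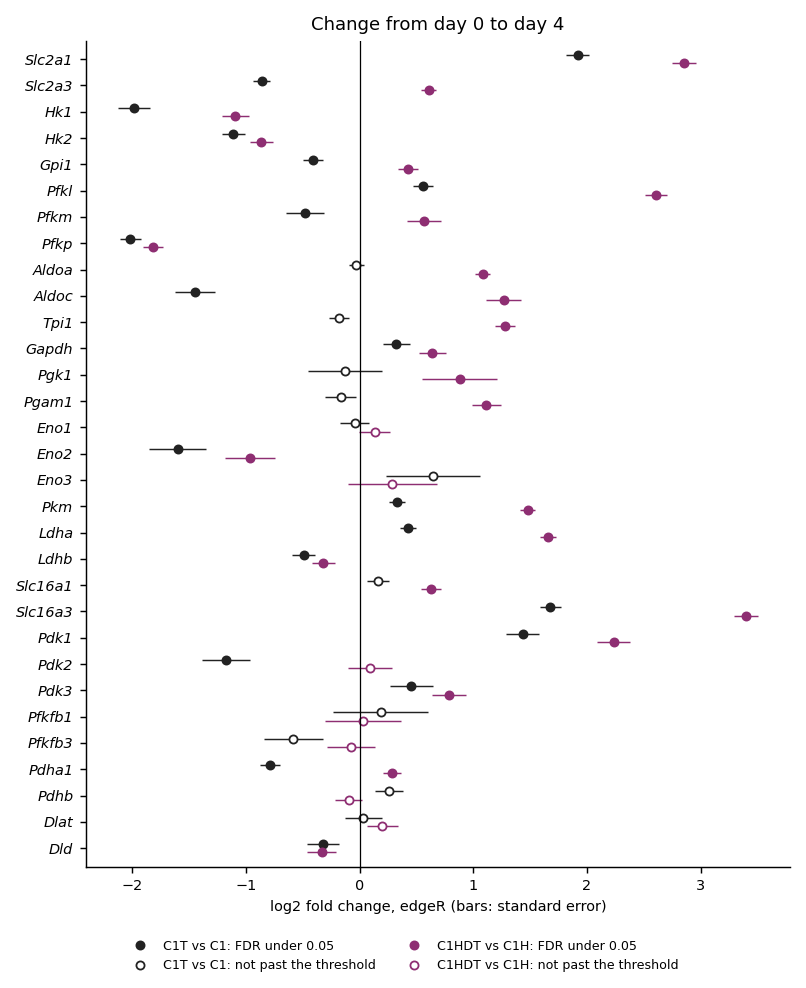
Log2 fold changes from day 0 to day 4 for 31 members without induction (C1T against C1) and with constant induction after the high sort (C1HDT against C1H), with standard errors as bars (x axis) and genes down the y axis. Filled points passed an adjusted p of 0.05. Slc2a3 and Aldoc lie left of 0 without induction and right of 0 with it, and Hk1, Hk2, Pfkp and Eno2 lie left of 0 in both.

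The difference between these changes was itself tested. Against the change from C1 to C1T, 20 genes were called for the change from C1M to C1MV, 20 for C1M to C1MDT, 19 for C1H to C1HV and 18 for C1H to C1HDT, and each called gene had the larger value in the induced cells. The backgrounds of genes called higher were 11.0%, 11.8%, 10.7% and 12.7%, and the medians of the 35 genes were 0.67, 0.73, 0.63 and 0.80 on the log2 scale where those of all genes lay between -0.06 and -0.03. These 4 comparisons share the C1 and C1T libraries. For C1HDT the difference in log2 change was 2.71 ± 0.24 for Aldoc, 2.05 ± 0.13 for Pfkl, 1.72 ± 0.15 for Slc16a3, 1.46 ± 0.13 for Tpi1, 1.23 ± 0.10 for Ldha and 1.07 ± 0.12 for Pdha1. Each value equals the day 4 difference from C1T minus the day 0 difference from C1. In the same 4 tests endoderm markers had 5 of 6 called higher in each, with medians of 2.56 to 3.38, naive markers 7 of 8 higher for C1MV and for C1HV, and epiblast markers 2 to 4 of 5 lower. The part of these markers in the result was not tested.

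At day 4 the induced groups also differed in level from C1T. Higher and lower calls numbered 14 and 7 in C1MV, 17 and 7 in C1MDT, 11 and 7 in C1HV and 19 and 4 in C1HDT. The backgrounds of all genes were 15.3% and 14.9%, 16.9% and 16.5%, 13.7% and 14.3%, and 17.4% and 16.1%. All 4 comparisons share the C1T libraries. Liver transcripts summed to more in C1T than in C1MDT and C1HDT, and with them as a covariate the lower calls were 2 in C1MDT, Hk2 and Eno1, and 1 in C1HDT, Eno1. Since these sums differed between the groups compared, a call lost in that fit cannot show what part the liver transcripts have. Endoderm markers were called higher than in C1T in all 4 groups, 6 of 6 each, and 7 of the 8 naive markers were higher in C1MV and in C1HV, while 4 of the 8 were lower in C1MDT and 3 in C1HDT. Epiblast markers were lower in 4 of 5 cases with the inducers withdrawn, and in 2 and 3 cases respectively for C1MDT and C1HDT. The 3 markers of general pluripotency were all lower in C1MDT and C1HDT. Of 3 neural markers (Sox1, Pax6 and Nes), 2 were called higher and 1 lower in C1MDT and in C1HDT, and 0 higher and 1 lower in C1MV and in C1HV. The part of these markers in the result was not tested.

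**Figure D4:**
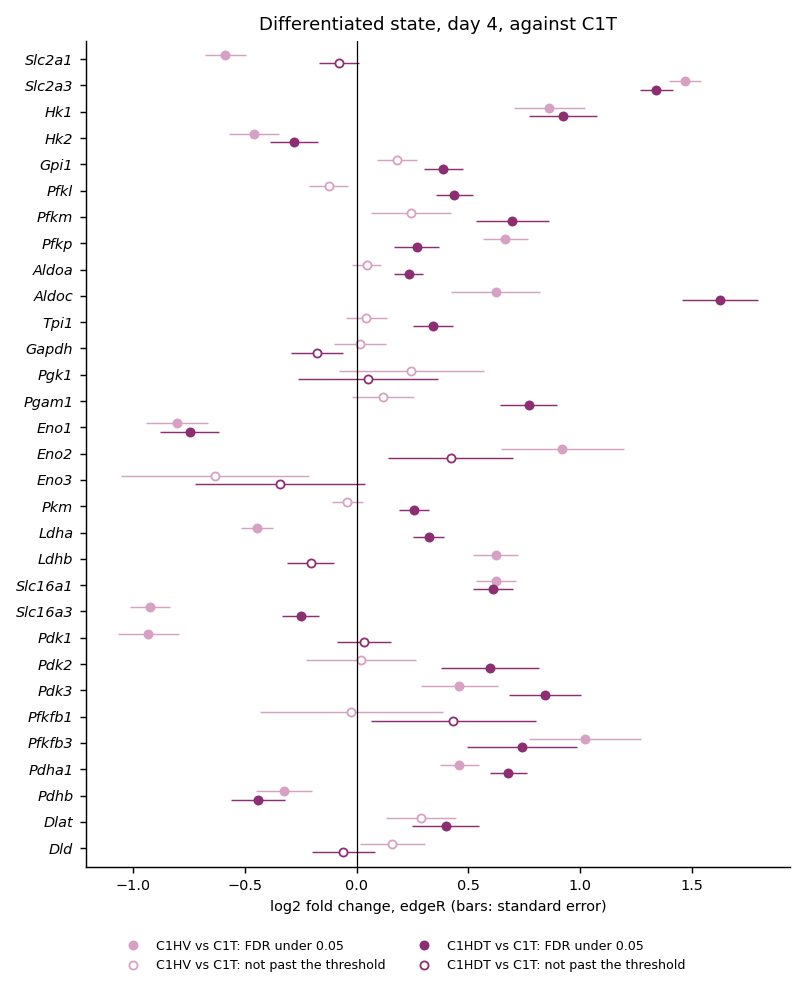
Log2 fold changes of C1HV and C1HDT against C1T at day 4 for 31 members, with standard errors as bars (x axis) and genes down the y axis. Filled points passed an adjusted p of 0.05. Slc2a3, Hk1 and Slc16a1 lie right of 0 and Eno1 left of 0 in both, whereas Ldha lies left of 0 in C1HV and right of 0 in C1HDT.

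Hkdc1 had 0 reads in all C1T libraries, and 3 reads over that group would be 0.37 CPM. It read 6.45, 10.1, 8.36 and 13.6 CPM in C1MV, 26, 12.2, 20.9 and 12.0 CPM in C1MDT, 8.27, 7.95, 9.46 and 11.1 CPM in C1HV and 14.3, 11.9, 14.7 and 23.5 CPM in C1HDT. Taken against that floor of 3 reads over the group, it was at least 24.7-fold higher in C1MV and in C1HV, at least 46.5-fold higher in C1MDT and at least 44.7-fold higher in C1HDT. The endoderm markers moved with it, as given above, and their part in the result was not tested. The medians of the 35 genes were the same with Hkdc1 at its bound.

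Among the 8 groups Slc2a3 was highest in these 4. It read 745, 874, 798 and 816 CPM in C1MV, 794, 699, 678 and 664 CPM in C1MDT, 817, 778, 821 and 842 CPM in C1HV and 748, 860, 642 and 731 CPM in C1HDT, each library above the 319 CPM of the highest C1T library. The log2 fold changes against C1T were 1.46 ± 0.07, 1.27 ± 0.07, 1.47 ± 0.07 and 1.34 ± 0.07 (adjusted p = 7.05e-41 for C1HV). Hk1 was higher by 0.76, 0.66, 0.86 and 0.92 on the log2 scale in the same order. It read 35.6 to 39.9 CPM in C1MV, 29 to 44.2 in C1MDT, 34.1 to 58.6 in C1HV and 35.2 to 49.7 in C1HDT, above the 25.4 CPM of the highest C1T library in each. Hk2 was lower by calls in all 4, with -0.42, -0.54, -0.46 and -0.28. The last call was lost with the liver covariate, where the value was -0.325 (adjusted p = 0.0581), and without any 1 of 5 libraries.

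Eno1 was lower in every induced group, with log2 fold changes of -0.88, -0.77, -0.80 and -0.75 and SEs of 0.13 to 0.14. It read 59.0, 59.5, 67.7 and 58.8 CPM in C1T and 37.4, 32, 31.8 and 43.6 CPM in C1HDT. Over both days its libraries read 26.7 to 43.6 CPM in the 6 groups that had received dox and 55.5 to 69.5 CPM in C1 and C1T, without overlap. Eno1 has 4 near-identical copies, so the level is uncertain. Pdha1 was higher with 0.62, 0.71, 0.46 and 0.68, Slc16a1 with 0.48, 0.63, 0.63 and 0.61, from 124, 99.9, 122 and 122 CPM in C1T to 193, 160, 168 and 190 CPM in C1HDT, and Pdk3 with 0.47, 0.59, 0.46 and 0.84. Pfkfb3, which makes an activator of phosphofructokinase, was higher with 1.25, 0.79, 1.02 and 0.74. It read 9.12, 9.16, 8.10 and 7.18 CPM in C1T, 16.3, 14.3, 10.5 and 15.3 CPM in C1HDT and 11.7 to 25.8 CPM over C1MV, C1MDT and C1HV. Aldoc was higher with 0.52, 1.45, 0.62 and 1.63, and in C1MDT it read 34.4 to 55.4 CPM. Pdhb was called lower in all 4 with values of -0.32 to -0.44, but 1 C1T library, replicate 4 at 109 CPM, lay well above the other three at 83.5, 62.0 and 70.1, and C1HDT read 64.3, 56.9, 60.7 and 53.1 CPM. Without that library all 4 calls were lost, and the values were -0.14, -0.22, -0.14 and -0.28 in C1MV, C1MDT, C1HV and C1HDT (adjusted p = 0.438, 0.183, 0.478 and 0.0841). The calls of Pdk3 in C1MV and C1HV, Aldoc in C1MV and Pfkfb3 in C1MDT were also lost with some 1 library left out.

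For Ldha and Pdk1 the groups without inducers and those with them stood differently to C1T, whereas for Slc2a1 C1HDT alone was not called. Slc2a1 read 170, 215, 175 and 233 CPM in C1MV and 177, 156, 208 and 249 CPM in C1HV, below the 274 CPM of the lowest C1T library, with log2 fold changes of -0.59 ± 0.09 in both. In C1MDT it read 270, 262, 234 and 241 CPM, also below every C1T library, and was called lower (-0.24 ± 0.09, adjusted p = 0.0289). This call was lost with the liver covariate, where the value was -0.26 (adjusted p = 0.126), and without any 1 of 4 libraries. In C1HDT it read 272, 284, 256 and 310 CPM and was not called (-0.08 ± 0.09). Slc16a3 was lower than in C1T in all 4 groups, with -0.86, -0.30, -0.92 and -0.25 in the order C1MV, C1MDT, C1HV and C1HDT. With the liver covariate it was called in neither C1MDT (-0.239, adjusted p = 0.133) nor C1HDT (-0.199, adjusted p = 0.187). The C1HDT call was also lost without either of 2 libraries. Ldha was lower in C1HV (-0.44 ± 0.07) and higher in C1MDT (0.33 ± 0.07) and C1HDT (0.32 ± 0.07). In C1MV it was called lower at -0.20 ± 0.07, and this call did not hold without any 1 of 6 of the libraries. Pdk1 was lower in C1MV (-0.66 ± 0.13) and C1HV (-0.93 ± 0.14), with -0.02 in C1MDT and 0.03 in C1HDT.

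The day 4 groups kept in dox and TMP were also set against those from which both had been withdrawn. The inducers themselves and the fusion cannot be told apart here. C1MDT had 11 genes higher and 4 lower than C1MV, against 6.64% and 5.95% of all genes, and C1HDT had 13 higher and 2 lower than C1HV, against 9.10% and 6.88%. The 2 comparisons share no library. Slc2a1, Hkdc1, Pfkl, Pfkm, Aldoc, Tpi1, Pkm, Ldha, Slc16a3 and Pdk1 were higher in both, 10 of the 11 and 10 of the 13, and Pfkp and Ldhb were lower in both, 2 of the 4 and 2 of the 2. Markers of cell state moved in these comparisons too. Naive markers were called lower in 7 of 8 cases in C1MDT and 8 of 8 in C1HDT, with medians of -1.37 and -1.24, and 4 of 5 epiblast markers were higher in each. Endoderm markers summed to 233 to 378 CPM in C1MV against 532 to 650 in C1MDT, and to 325 to 364 CPM in C1HV against 524 to 641 in C1HDT. Of the 3 neural markers 2 were called higher and 0 lower in each comparison, with medians of 0.89 and 0.61. The part of these markers in the result was not tested.

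Ldha and Ldhb went in opposite directions. Ldha read 821, 873, 733 and 723 CPM in C1MV and 1310, 1130, 1130 and 993 CPM in C1MDT (0.53 ± 0.07, adjusted p = 7.08e-10), and 673, 585, 667 and 739 CPM in C1HV and 1020, 1180, 1080 and 1250 CPM in C1HDT (0.77 ± 0.07, adjusted p = 2.18e-17). Ldhb read 174, 150, 184 and 146 CPM in C1MV and 68.6, 72.3, 60.0 and 89.1 CPM in C1MDT (-1.18 ± 0.10, adjusted p = 1.22e-20), and 134, 125, 147 and 144 CPM in C1HV and 75.9, 83.6, 83.4 and 68.4 CPM in C1HDT (-0.83 ± 0.10, adjusted p = 1.66e-11). Neither gene's libraries overlapped between the groups compared. The A subunit favours the making of lactate and the B subunit its use.

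Pdk1 read 41.5, 49.1, 46.9 and 35.7 CPM in C1MV against 72.7, 64.5, 71.2 and 66.1 CPM in C1MDT, and 39.3, 37.5, 36.1 and 32.5 CPM in C1HV against 72.1, 77.4, 68.7 and 67.4 CPM in C1HDT, again without overlap (0.64 ± 0.13 and 0.97 ± 0.13). Slc16a3 read 183, 209, 142 and 180 CPM in C1MV and 298, 248, 271 and 241 CPM in C1MDT (0.56 ± 0.09), and 147, 161, 191 and 181 CPM in C1HV and 279, 270, 246 and 292 CPM in C1HDT (0.68 ± 0.09). Aldoc rose by 0.93 ± 0.16 and 1.00 ± 0.16, and its 17.0 to 26.7 CPM in C1HV lay below the 34.8 to 56.2 CPM of C1HDT. Hkdc1 rose by 0.91 ± 0.26 and 0.83 ± 0.28, Pfkl by 0.40 and 0.56, Slc2a1 by 0.35 and 0.51, Pkm by 0.32 and 0.30 and Tpi1 by 0.27 and 0.30 on the log2 scale, while Pfkp fell by 0.60 and 0.40. Eno2 (-0.73) and Slc2a3 (-0.19) were called lower, and Dlat (0.44) higher, in C1MDT against C1MV, and Pgam1 (0.65), Aldoa (0.19) and Pdha1 (0.22) higher in C1HDT against C1HV. Whether the change differed between the sorts was tested for every gene, and 0 of 35 genes and 0 of 15280 were called by edgeR, with 1284 genes and 3 members at an unadjusted p under 0.05, while DESeq2 called 0 with 1111 genes and 2 members.

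Several of these calls moved with other settings. Liver transcripts summed to less in C1MDT and C1HDT than in C1MV and C1HV. With them as a covariate, 9 of the 15 genes were still called between C1MDT and C1MV, and 11 of the 15 between C1HDT and C1HV, with 1 further gene called there. Hkdc1 (0.701 and 0.682, adjusted p = 0.353 and 0.213) and Pfkm (0.512 and 0.446, adjusted p = 0.0988 and 0.0916) were no longer called in either. Ldha and Ldhb were called in both. Slc2a1 (0.337, adjusted p = 0.0559), Eno2 (-0.743), Slc2a3 (-0.164) and Dlat (0.471) were lost in C1MDT against C1MV, and Aldoa (0.18) and Pdha1 (0.19) in C1HDT against C1HV. As before, such a loss cannot show what part the liver transcripts have. The Hkdc1 call was also lost without any 1 of 3 libraries in C1MDT against C1MV and any 1 of 4 in C1HDT against C1HV. The calls of Tpi1 in both comparisons, of Eno2, Slc2a3 and Dlat in the first and of Pfkm, Aldoa and Pdha1 in the second were likewise lost with some 1 library left out, and without C1HV replicate 2 the value of Aldoa was 0.11 instead of 0.19 (adjusted p = 0.352).

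**Figure D5:**
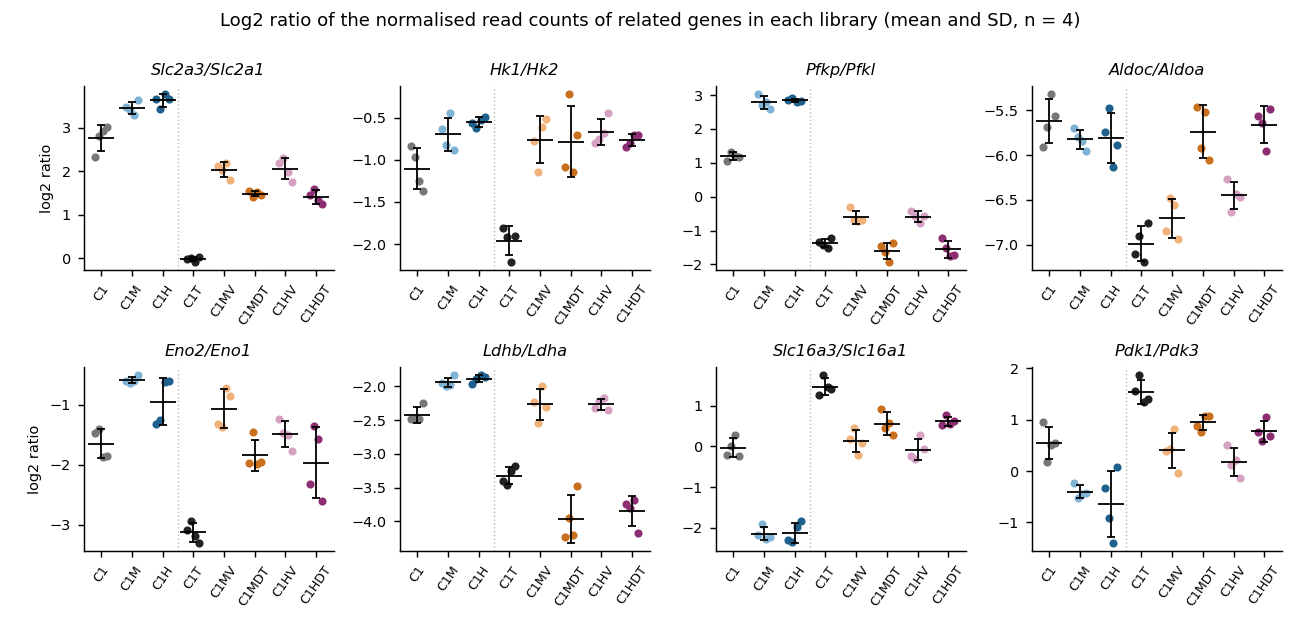
Log2 ratio of the normalised read counts of 8 pairs of related genes (y axis) in each library, with groups on the x axis, points for libraries and bars for the mean and SD of 4. Ratios may be compared between groups but not between pairs, since reads per transcript differ between genes. C1T has the lowest Slc2a3/Slc2a1, Hk1/Hk2 and Eno2/Eno1 ratios of all groups, and C1MDT and C1HDT the lowest Ldhb/Ldha ratios.

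Ratios of related genes within a library show these shifts without scaling between libraries, and are described without a test. The log2 ratio of Ldhb to Ldha was -2.43 ± 0.12 in C1 (SD, n = 4), -1.94 ± 0.07 in C1M and -1.89 ± 0.05 in C1H, and -3.33 ± 0.12 in C1T. It was -2.27 ± 0.22 in C1MV and -2.27 ± 0.08 in C1HV, against -3.96 ± 0.36 in C1MDT and -3.85 ± 0.22 in C1HDT. The ratio of Slc2a3 to Slc2a1 was 2.77 ± 0.30 in C1 and -0.01 ± 0.05 in C1T, and lay at 2.03 ± 0.17, 1.49 ± 0.06, 2.06 ± 0.25 and 1.40 ± 0.16 in C1MV, C1MDT, C1HV and C1HDT. For Hk1 over Hk2 it was -1.11 ± 0.24 in C1 and -1.96 ± 0.17 in C1T, while the 4 induced groups of day 4 had means of -0.79 to -0.67. Pfkp over Pfkl was highest in C1M (2.78 ± 0.19) and C1H (2.85 ± 0.04), intermediate in C1 (1.19 ± 0.12), and negative in all groups of day 4, at -1.37 ± 0.12 in C1T, -0.61 ± 0.20 in C1MV and -1.60 ± 0.24 in C1MDT. Slc16a3 over Slc16a1 was lowest in C1M (-2.15 ± 0.16) and C1H (-2.12 ± 0.25) and highest in C1T (1.47 ± 0.20).

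The remaining genes were low. Pdk4, a kinase linked to fatty acid use, had at most 4 reads in a library, Pfkfb2 at most 7, Pfkfb4 at most 15, Eno3, the muscle enolase, at most 17, and Pfkfb1 at most 24. Eno3, Pdk4 and Pfkfb2 were called in none of the 14 comparisons between 2 groups, and their low counts limit the differences that could be called. Pfkfb1 was called once, higher from C1M to C1MDT (1.08), and Pfkfb4 once, lower in the same comparison (-1.40), at means of 3.18 and 1.23 CPM, a call lost without any 1 of 3 libraries. Dlat and Dld were called in 3 comparisons each.

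Other genes of carbon metabolism were described by list. Of 7 genes of the pentose phosphate pathway, which makes NADPH and ribose from glucose 6-phosphate, 1 was called higher and 1 lower in C1M against C1, and 1 higher and 2 lower in C1H. Of 17 genes of the citrate cycle, 2 were called higher and 2 lower in C1M, and 3 higher and 3 lower in C1H. Among 19 targets and factors of the hypoxia response outside glycolysis, 3 were called higher and 4 lower in C1M, and 3 higher and 5 lower in C1H. Of 19 tested genes for other isozymes and gluconeogenesis, 0 were called higher and 2 lower in each, and of 6 genes for pyruvate import and the regulation of pyruvate dehydrogenase 1 was called higher in C1M, 2 were in C1H and 0 were lower. Of all genes 14.3% were higher and 12.0% lower in C1M, and 13.8% higher and 12.1% lower in C1H. The median log2 fold changes in C1M and C1H were -0.15 and -0.15 for the pentose phosphate pathway, 0.09 and 0.06 for the citrate cycle and 0.03 and -0.19 for the hypoxia list, beside 0.06 and 0.04 for all genes. Between C1T and C1, 4 genes of the hypoxia list were called higher and 11 lower, with a median of -0.68, beside 24.4% and 24.9% of all genes. Between C1HDT and C1T the calls were 4 higher and 1 lower for the pentose phosphate pathway, 6 higher and 1 lower for the citrate cycle, and 9 higher and 4 lower for the hypoxia list, beside 17.4% and 16.1% of all genes. Between C1HDT and C1HV, where 13 of the 35 genes were higher, 0 genes of the hypoxia list were higher and 3 lower, with a median of 0.14, beside 9.10% and 6.88% of all genes, and 2 genes of the pentose phosphate pathway were higher and 0 lower. Between C1MDT and C1MV, 1 gene of the hypoxia list was higher and 4 lower, with a median of -0.07, beside 6.64% and 5.95% of all genes, and 3 genes of the pentose phosphate pathway were higher and 0 lower. The citrate cycle had 1 gene higher and 1 lower in each.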

How the data were processed

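RNA from 32 samples of the C1 mouse ESC line, 4 in each of 8 groups taken from the labels, was sequenced by QuantSeq 3′ mRNA sequencing. Per the study's methods the authors trimmed the reads, aligned them to mm10 with STAR (Ensembl release 93 annotation) and used htseq-count for the unique alignments on each gene. The values used are those deposited counts, whole and not normalised, for 31053 genes. The 5 summary rows of each file were left out, of which reads not aligned uniquely made up 49.4% to 56.4% of the file total, reads on no gene 4.72% to 11.2% and ambiguous reads 0.23% to 0.29%. The labels describe growth in serum with LIF for these cells before differentiation. The study's methods describe 2i, the inhibitors of GSK3 and MEK, with LIF.

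Names and positions came from the GENCODE annotation of GRCm38. A gene was kept when 4 or more libraries reached 1 CPM, which left 15280. Aldoa matched 2 gene IDs and the one holding nearly all of its reads was used. All groups entered 1 fit of edgeR 4.0.16 (R 4.3.3; TMM scaling, robust quasi-likelihood test), with Benjamini-Hochberg adjustment over all genes tested and a threshold of 0.05. Log2 fold changes are given with standard errors as the change divided by the root of F. CPM used TMM-scaled library sizes, and ratios within a library use a prior count of 2. A count of 0 allows up to 3 reads, and such limits cover counting error only. The scripts were tested on simulated counts with known changes. Alternatives were RLE factors, library size only, DESeq2 1.42.0, other filters on low counts, a fit of the groups compared, a replicate block, each library left out in turn and, added after seeing the data, liver transcripts as a covariate.

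The 35 genes were listed by name, and they and the other lists were chosen with earlier results of these data known. Values in every library are given, for at least 1 comparison, for isozymes called between C1T and C1 or between another day 4 group and C1T, and for the 3 genes per direction with the lowest p in the main comparisons. From each other list at most 2 genes per direction are named, those with the largest change at a mean log2 CPM of at least 1.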

Additional observations from a re-analysis of the deposited data

Results flagged for a closer look

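The change from C1H to C1HDT differed from that from C1 to C1T in 18 genes by the test of the difference itself, always with the larger value in the induced cells. On the log2 scale the difference was 0.93 for Slc2a1, 1.47 for Slc2a3, 0.89 for Hk1, 0.84 for Gpi1, 2.05 for Pfkl, 1.05 for Pfkm, 1.11 for Aldoa and 2.71 for Aldoc. It was 1.46 for Tpi1, 1.28 for Pgam1, 1.15 for Pkm, 1.23 for Ldha, 0.47 for Slc16a1, 1.72 for Slc16a3, 0.80 for Pdk1, 1.26 for Pdk2 and 1.07 for Pdha1. Hkdc1 had a fitted difference of 7.74, which depends on the prior count because C1T had 0 reads. The same test gave 20 genes for C1MV, 20 for C1MDT, 19 for C1HV and 18 for C1HDT, each against the change from C1 to C1T.

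Of 168 combinations of a gene and a group of 4, 8 held a library far from the other three, where chance flags about 1 in 20. These were Hk1 in C1HV replicate 4 (58.6 CPM), Aldoc in C1HV replicate 2 (17.0), Eno1 in C1T replicate 3 (67.7), Ldha in C1T replicate 2 (927), Slc16a1 in C1T replicate 2 (99.9), Pfkfb3 in C1MV replicate 2 (25.8), Pfkfb3 in C1MDT replicate 1 (23.1) and Pdhb in C1MDT replicate 2 (78.5).

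Reads not aligned uniquely, which no comparison uses, took a larger share in every library of 6 groups than in any C1 library, where the highest was 51.3%. The group medians were 53.3% in C1M and 54.4% in C1T, 55.4% and 53.7% in C1MV and C1HV, and 53.3% and 54.0% in C1MDT and C1HDT. The part of this share in the values of genes with near-identical copies was not tested.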

How the results depend on the processing

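Of 343 calls of a gene in a comparison, 67 were lost in at least 1 alternative, 58 of them with some 1 library left out, and 0 changed direction. The count between C1MDT and C1MV was 15, and 9 with the liver transcripts as a covariate, an alternative chosen after seeing the data. Counts over both directions stayed within 1.5 times in the other comparisons under the alternatives that kept all libraries. Split by direction, the liver covariate took the lower calls from 7 to 2 in C1MDT and from 4 to 1 in C1HDT against C1T, and the calls of C1MDT against C1MV from 11 higher and 4 lower to 7 and 2. Higher calls in C1M against C1 went from 0 to 3 with library size only and to 1 with the liver covariate or a filter of 1 CPM in all libraries, which also took the lower calls of C1HV against C1H from 3 to 5. With 1 library left out, the lower calls of C1HDT against C1T went down to 2 and those of C1MDT against C1MV and C1T to 2 and 4, the higher calls of C1HDT against C1HV down to 8, and the lower calls of C1MV against C1M and of C1HV against C1H up to 5. Leaving out 1 library at a time gave 16 to 19 genes for C1M and 18 to 19 for C1H against C1, 18 to 22 for C1T against C1, 16 to 21, 21 to 25, 16 to 18 and 20 to 23 for C1MV, C1MDT, C1HV and C1HDT against C1T, 11 to 16 for C1MDT against C1MV and 10 to 16 for C1HDT against C1HV. The lowest count of the last, 10, was without C1HV replicate 2. From day 0 to day 4 the ranges were 20 to 23, 24 to 26, 17 to 20 and 23 to 25 for C1MV, C1MDT, C1HV and C1HDT. DESeq2 lost 20 calls, library size only 17, the liver covariate 38 and RLE factors 5.

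A fit with a replicate block gave counts of 19, 19 and 21 for C1M, C1H and C1T against C1, 14 for C1MDT against C1MV and 14 for C1HDT against C1HV, and 7 of 343 calls were lost. Replicate numbers did not pair the libraries: over 112 pairs with the same number in different groups, 0 had deviations from the group means correlated above 0.1, with a mean correlation of -0.00163. Of 224 differences in isozyme ratios under another prior count or scaling, 4 moved by more than the spread between replicates, all of them Hkdc1 over Hk2, and 0 reversed. Depth limits the genes with few reads, namely Eno3, Pdk4, Pfkfb1, Pfkfb2, Pfkfb4 and, at day 0, Hkdc1, for which smaller differences could be missed.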

Other observations

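Among other genes of glucose and carbon metabolism, several moved strongly during differentiation. Fbp2, the muscle type fructose bisphosphatase of gluconeogenesis, read 36.1 ± 3.79 CPM in C1 and 2.86 ± 1.08 in C1T (SD, n = 4; log2 fold change -3.59 ± 0.26, adjusted p = 1.01e-26 by edgeR). Pdp2, a phosphatase that reactivates pyruvate dehydrogenase, had a log2 fold change of -1.82 ± 0.10 and Idh2, the mitochondrial NADP-dependent isocitrate dehydrogenase, of -1.67 ± 0.11 between C1 and C1T. Idh2 was higher in C1HDT than in C1T (1.05 ± 0.11). G6pdx, the entry enzyme of the pentose phosphate pathway, read 24.4 ± 2.92 CPM in C1T, 12.5 ± 3.43 in C1 and 8.97 ± 1.85 in C1HDT, so that it was higher with differentiation (0.96 ± 0.22) and lower in C1HDT than in C1T (-1.44 ± 0.23). In the hypoxia list, the growth factor gene Vegfa fell from 135 ± 6.91 CPM in C1 to 17.7 ± 2.75 in C1T (-2.94 ± 0.14, adjusted p = 7.04e-45), and the stress-induced mTOR inhibitor gene Ddit4 rose (1.77 ± 0.19). P4ha1, a collagen prolyl hydroxylase subunit, read 13.6 ± 2.94 CPM in C1T and 52 ± 8.93 in C1HDT (1.96 ± 0.17).

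Alb, the albumin gene and a liver transcript, had 998 to 2273 reads per library and Afp, the gene of alpha-fetoprotein, its fetal counterpart, 0 to 2.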
